A study of Homo sapiens with 17 samples.

Results

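Active distal enhancers that carried no HNRNPU summit were examined in H1, a line of human embryonic stem cells. The regions were summits, the bases of highest signal of called peaks, from CUT&Tag, a method in which transposase tethered to an antibody tags the chromatin beside its target. Starting from the 20000 highest-scoring H3K27ac summits on chromosomes 1 to 22 of shLUC replicate 1, 16223 had an H3K27ac summit of shLUC replicate 2 within 250 bp. Of these, 11177 also had an H3K4me1 summit of both shLUC libraries within 500 bp, and 8536 of those lay more than 1000 bp from either end of every RefSeq protein-coding gene. Of these 8536 active distal enhancers, 3187 (37.3%) had no summit of either HNRNPU library within 500 bp and are the members described here. The members were thus chosen by their shLUC H3K27ac and H3K4me1 summits and by HNRNPU, and these values are given without a test. A further 3196 (37.4%) had an HNRNPU summit in both repeats and are called HNRNPU-bearing, and 2153 (25.2%) had 1 in a single repeat.

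The study compared cells that had received virus with an shRNA against HNRNPU (shHNRNPU#1 or shHNRNPU#2) with cells that had received an shRNA against luciferase (shLUC, the control). All virus-treated cells were selected with puromycin. H3K27ac and H3K4me1 were each profiled in 4 shHNRNPU libraries (2 repeats of each shRNA) and 2 shLUC libraries. HNRNPU was profiled in 2 libraries of cells without an shRNA, and POLIIS2P, a name the labels do not spell out, in 1 shHNRNPU#1 and 2 shLUC libraries, so 17 libraries entered in all. Titles and list names disagree on the antibody of the 4 histone libraries of shLUC cells, and the list names were followed here. By these names, the strongest summits of the shLUC H3K27ac libraries were found in the H3K27ac shHNRNPU lists at 46.3% to 55.6% and in the H3K4me1 shHNRNPU lists at 21.0% to 24.5%. The shLUC H3K4me1 libraries were found in H3K4me1 lists at 68.2% to 73.5% and in H3K27ac lists at 18.3% to 26.0%.

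Enhancers are stretches of DNA that bind transcription factors and raise the transcription of genes that can lie far away. H3K4me1, methylation of histone H3 at lysine 4, marks enhancers in general, and H3K27ac, acetylation of the same histone at lysine 27, marks those in use as well as active promoters. HNRNPU, also called SAF-A, is an abundant nuclear protein that binds RNA and DNA and takes part in the organisation of chromatin. Pluripotent cells keep their identity largely through enhancers of transcription factor genes such as SOX2 and NANOG.

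Read depth was unknown, since only summit lists were analysed. The lists held 40487 to 90914 summits for H3K27ac, 147145 to 214333 for H3K4me1, 34649 and 35526 for HNRNPU and 79949 to 87456 for POLIIS2P. The H3K27ac lists of shHNRNPU#1 were the shortest, with 51655 and 40487 summits, against 75264 and 85142 for shHNRNPU#2 and 62449 and 90914 for shLUC. Because a longer list finds more regions, a summit was called strong when it was among the 20000 highest of its own list. No library was a copy of its repeat, since 1.68% to 8.74% of summits fell on identical bases. Of 19 genes of a pluripotency list, 6 to 9 had a strong H3K27ac summit within 1000 bp of a gene end in each of the 6 libraries. L1TD1, ZFP42, JARID2 and TERF1 had one in all 6. The counts were 0 of 14 mesendoderm genes, 0 to 1 of 14 neural genes and 0 to 1 of 14 naive genes. The same count over all protein-coding genes was not made, so these counts are description only. The amount of HNRNPU left after knockdown is not measured by these lists.

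To show the sequence under the members, the RefSeq promoter windows (GRCh38.p14, 250 bases before to 50 after an annotated start) that held a member's summit were read out. The windows cover every chromosome used except 8. A start can be internal to a gene or belong to a non-coding RNA, so a summit more than 1000 bp from every protein-coding gene end can still lie in such a window. Only 28 windows of 27 genes held a member, 16 of protein-coding genes and 12 of lncRNAs, against 226 that held an HNRNPU-bearing enhancer, out of 33725 windows. The member windows were poor in CpG, the dinucleotide in which cytosine is methylated and which is dense in CpG island promoters. Their median was 5.5 CpG per 300 bases (range 0 to 25) against 22 (0 to 46) in the HNRNPU-bearing windows and 14 in all windows. Median GC content was 55.7%, 63.7% and 58.7% in the same order. The summits of both enhancer classes were held more than 1000 bp from protein-coding gene ends by the rule. The set of all windows was not filtered in this way, so it is an unlike set.

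The 4 member windows with the highest control H3K27ac rank are shown 5′ to 3′ with every CpG in capitals, so that their scarcity can be seen. They are CEACAM16-AS1 chr19:44718601-44718900 (minus strand), TTC7B-AS1 chr14:90642379-90642678 (plus strand), ARHGAP32 chr11:129024139-129024438 (minus strand), LOC124903863 chr1:18298282-18298581 (minus strand).
CEACAM16-AS1: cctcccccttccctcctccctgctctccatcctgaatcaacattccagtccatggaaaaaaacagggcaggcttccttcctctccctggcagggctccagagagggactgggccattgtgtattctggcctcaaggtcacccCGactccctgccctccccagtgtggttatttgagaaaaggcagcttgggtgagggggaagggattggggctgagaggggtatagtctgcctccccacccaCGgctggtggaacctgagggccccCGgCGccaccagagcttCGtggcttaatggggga
TTC7B-AS1: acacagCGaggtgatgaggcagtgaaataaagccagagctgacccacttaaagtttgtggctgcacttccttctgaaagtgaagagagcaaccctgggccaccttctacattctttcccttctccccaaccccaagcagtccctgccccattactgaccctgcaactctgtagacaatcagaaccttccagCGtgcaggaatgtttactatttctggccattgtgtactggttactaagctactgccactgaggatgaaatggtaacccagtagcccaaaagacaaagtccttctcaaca
ARHGAP32: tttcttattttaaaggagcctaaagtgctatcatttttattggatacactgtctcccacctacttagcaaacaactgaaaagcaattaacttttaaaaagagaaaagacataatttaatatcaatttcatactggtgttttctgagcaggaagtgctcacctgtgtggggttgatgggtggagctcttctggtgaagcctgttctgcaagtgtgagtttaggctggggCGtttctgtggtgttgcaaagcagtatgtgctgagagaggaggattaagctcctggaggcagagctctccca
LOC124903863: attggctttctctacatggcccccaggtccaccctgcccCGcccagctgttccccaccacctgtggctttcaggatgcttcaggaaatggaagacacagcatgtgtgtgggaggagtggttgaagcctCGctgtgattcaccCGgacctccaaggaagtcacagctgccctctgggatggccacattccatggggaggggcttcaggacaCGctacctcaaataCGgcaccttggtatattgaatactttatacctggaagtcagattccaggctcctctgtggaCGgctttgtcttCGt

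These held 5, 2, 1 and 7 CpG. CEACAM16-AS1 and TTC7B-AS1 are antisense RNAs, ARHGAP32 is a protein-coding gene, and the summits of these 3 windows lay 27, 120 and 17 bp upstream of the annotated start. For comparison the 4 HNRNPU-bearing windows with the highest control rank are given in the same form. They are LOC105379574 chr1:144551965-144552264 (plus strand), PURPL chr5:27472042-27472341 (plus strand), ATG101 chr12:52069728-52070027 (plus strand), MYADM chr19:53867633-53867932 (plus strand).
LOC105379574: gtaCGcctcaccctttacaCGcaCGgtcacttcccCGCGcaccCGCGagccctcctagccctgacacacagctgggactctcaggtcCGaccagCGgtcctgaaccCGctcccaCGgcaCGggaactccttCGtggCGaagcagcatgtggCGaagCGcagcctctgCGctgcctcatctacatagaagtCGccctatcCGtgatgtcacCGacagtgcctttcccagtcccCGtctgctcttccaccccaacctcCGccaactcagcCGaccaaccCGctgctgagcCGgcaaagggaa
PURPL: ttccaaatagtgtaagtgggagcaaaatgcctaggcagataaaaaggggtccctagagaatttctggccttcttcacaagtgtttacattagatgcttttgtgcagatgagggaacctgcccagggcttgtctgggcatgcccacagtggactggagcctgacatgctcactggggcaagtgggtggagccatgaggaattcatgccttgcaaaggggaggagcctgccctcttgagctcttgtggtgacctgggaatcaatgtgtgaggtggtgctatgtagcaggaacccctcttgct
ATG101: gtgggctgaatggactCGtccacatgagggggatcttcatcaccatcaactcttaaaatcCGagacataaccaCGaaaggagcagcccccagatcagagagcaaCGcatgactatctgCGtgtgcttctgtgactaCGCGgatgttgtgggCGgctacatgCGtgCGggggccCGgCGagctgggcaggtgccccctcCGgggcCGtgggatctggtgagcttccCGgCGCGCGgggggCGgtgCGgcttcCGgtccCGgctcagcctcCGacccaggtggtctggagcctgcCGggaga
MYADM: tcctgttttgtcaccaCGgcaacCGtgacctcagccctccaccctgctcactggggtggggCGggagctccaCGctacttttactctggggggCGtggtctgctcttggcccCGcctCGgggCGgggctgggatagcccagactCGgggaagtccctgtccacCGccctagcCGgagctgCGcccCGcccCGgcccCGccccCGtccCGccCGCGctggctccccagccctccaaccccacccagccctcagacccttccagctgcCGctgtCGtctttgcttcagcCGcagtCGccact

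Of these, 3 held 23 to 25 CpG and the window of PURPL, a lncRNA, held 0, so low CpG was found in both classes. ATG101 encodes an autophagy initiation factor and MYADM a membrane protein. Short motifs were also counted on both strands. The GC box GGGCGG was in 32.1% of member windows, 62.8% of HNRNPU-bearing windows and 15191 of all 33725 windows. CCAAT was in 42.9%, 44.7% and 34.4%, TATAAA in 7.14%, 2.21% and 11.6%, and the octamer ATGCAAAT in 0%, 0.885% and 1.75%. With 28 member windows, these shares rest on 9, 12, 2 and 0 windows. A match is only a description of the letters.

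Of 1461 miRNA hairpins in RefSeq, 8 lay within 250 bp of a member and 7 within 250 bp of an HNRNPU-bearing enhancer. A member's summit fell inside 3 of the hairpins. MIR6132 lies in the gene ST7, MIR3907 in CRYGN, and MIR744 in MAP2K4, a stress kinase gene. Their mature miRNAs are shown with the seed, bases 2 to 8, in capitals, and no seed was shared among them.
hsa-miR-6132: aGCAGGGCuggggauugca
hsa-miR-3907: aGGUGCUCcaggcuggcucaca
hsa-miR-744-5p: uGCGGGGCuagggcuaacagca
hsa-miR-744-3p: cUGUUGCCacuaaccucaaccu

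The MIR744 member at chromosome 17, position 12081949, and the MIR6132 member at chromosome 7, position 117020211, had a deposited H3K27ac summit in all 4 shHNRNPU lists, and the MIR3907 member in 1.

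Most members had H3K27ac in some shHNRNPU libraries. A deposited H3K27ac summit lay within 250 bp in all 4 shHNRNPU lists at 1292 members (40.5%, against 41.7% of all 20000 starting summits) and in none at 120 (3.77%, against 6.96%). In between, 303 members were found in 1 list, 593 in 2 and 879 in 3. For HNRNPU-bearing enhancers 62.3% were found in all 4 lists and 1.28% in none. The share of members found rose with list length, from 58.8% in the shortest shHNRNPU list to 84.6% in the longest. A list from a bulk culture cannot tell a region acetylated in few cells from one weakly acetylated in all.

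Strong H3K27ac summits were found at fewer members than HNRNPU-bearing enhancers in every library. At members the strong share was 46.1% and 43.4% in the shHNRNPU#1 libraries, 47.2% and 49.8% in the shHNRNPU#2 libraries and 53.1% in shLUC replicate 2, and it is 100% in shLUC replicate 1 by the rule. At HNRNPU-bearing enhancers it was 68.2%, 65.0%, 74.7% and 75.5% in the shHNRNPU libraries and 84.5% in shLUC replicate 2. The groups of values did not overlap. The mean over the 4 shHNRNPU libraries was 46.6% ± 2.66 (SD, n = 4) for members and 70.8% ± 5.08 for HNRNPU-bearing enhancers, a difference of -24.2 percentage points (range -27.5 to -21.6). The exact sign-flip p was 0.125, the smallest that 4 libraries allow, and 0.313 adjusted over 5 tests, so this design cannot pass 0.05. Counting all deposited summits the difference was -11.9, from 72.9% and 84.8%. Enhancers with HNRNPU in a single repeat lay between the classes, at 57.7%, as they did for H3K4me1 (44.7%) and POLIIS2P (23.4%). A strong summit was present in all 4 libraries at 577 members (18.1%, against 24.5% of all starting summits). It was present in none at 725 members (22.7%, against 24.9%). Both shares lay below those of the starting summits. For HNRNPU-bearing enhancers they were 45.2% and 8.70%.

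H3K4me1 showed the widest presence and few strong summits at members. A deposited H3K4me1 summit lay within 500 bp in all 4 shHNRNPU lists at 2617 members (82.1%, against 57.9% of all starting summits). For HNRNPU-bearing enhancers the share was 92.7%. The members were chosen to have H3K4me1 in shLUC and the starting summits were not. The strong share at members was 25.3% and 27.6% in shHNRNPU#1, 27.7% and 27.6% in shHNRNPU#2 and, as description, 25.8% and 27.9% in the shLUC libraries that the rule used. Every library at HNRNPU-bearing enhancers lay above these, between 51.7% and 56.7%. The mean was 27.1% ± 1.18 (SD, n = 4) for members and 53.7% ± 2.19 for HNRNPU-bearing enhancers, a difference of -26.6 percentage points (exact sign-flip p = 0.125, adjusted 0.313). Counting all deposited summits it was -4.58, from 92.8% and 97.3%, and with antibodies by sample title -12.9. A strong H3K4me1 summit was absent from all 4 shHNRNPU lists at 1951 members (61.2%, against 68.9%) and present in all 4 at 539 (16.9%, against 15.9%).

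POLIIS2P gave the largest of the 3 differences. A strong POLIIS2P summit lay within 500 bp of 13.1% of members in shHNRNPU#1 and of 12.8% and 13.2% in shLUC, against 47.5%, 49.6% and 47.4% of HNRNPU-bearing enhancers. The means were 13.0% ± 0.237 (SD, n = 3) and 48.1% ± 1.23, a difference of -35.1 percentage points (exact sign-flip p = 0.25, the smallest 3 libraries allow, adjusted 0.417). Strong summits were present in all 3 lists at 223 members (7.00%, against 23.9% of all starting summits) and in none at 2532 (79.4%, against 59.7%). A deposited summit of any strength was present in all 3 lists at 1002 members (31.4%, against 46.8%) and absent from all at 1234 (38.7%, against 29.9%). The single shHNRNPU#1 library lay 0.05 percentage points above the shLUC mean at members, less than the spread between both shLUC libraries, and with 1 library in a group there is no test.

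**Figure D1:**
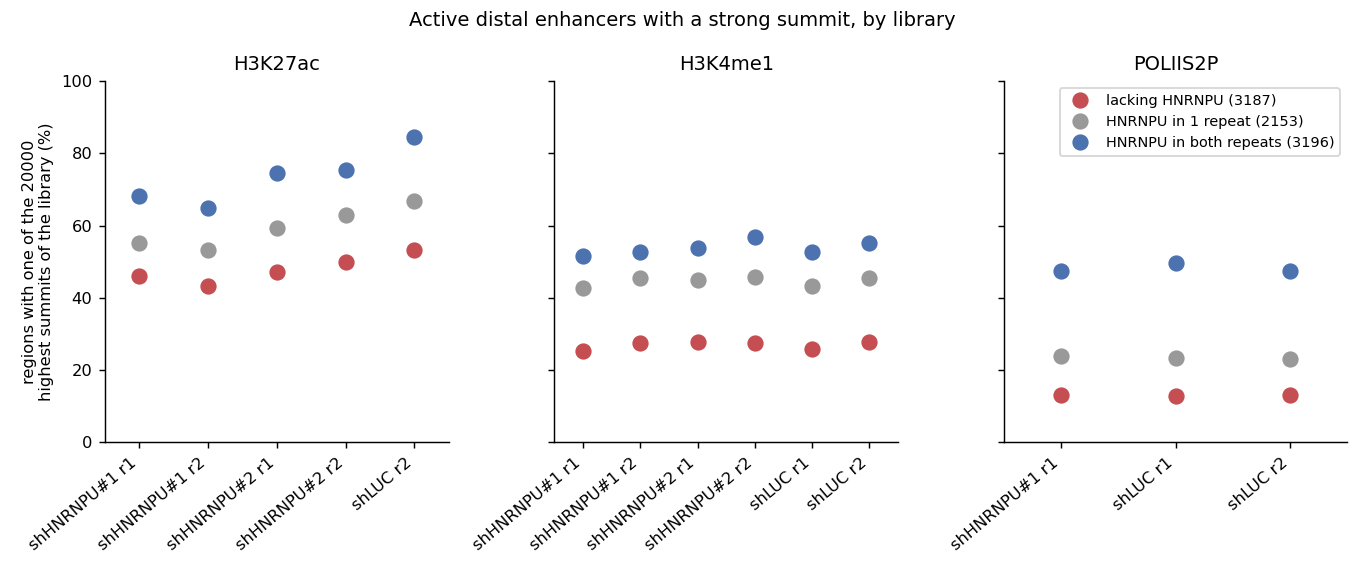
Each point is the percentage of active distal enhancers of a class with one of the 20000 highest summits of a library nearby, with libraries on the horizontal axis (r, replicate) and 1 panel per antibody. Enhancers lacking HNRNPU lie lowest in every library, at 12.8% to 13.2% for POLIIS2P, and those with HNRNPU in a single repeat lie between the other classes. The shLUC H3K27ac replicate 1 library, which is 100% by the rule, is left out.

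Members were weaker enhancers by control H3K27ac, a value the rule used and which is given as description. Their median rank in shLUC replicate 1 was 11309, against 5911 for HNRNPU-bearing enhancers. When the 8536 enhancers were divided into 10 equal bins by this score, the share lacking HNRNPU was 10.2% in the highest bin (87 members) and 54.7% in the lowest (467 members). Within every bin the members still had fewer strong summits of each antibody. POLIIS2P was strong at 8.99% to 20.5% of members and 41.0% to 58.8% of HNRNPU-bearing enhancers across the bins. For H3K27ac in shHNRNPU cells the second bin had 73.1% of members against 84.9%, and the lowest had 33.0% against 43.8%. Weighted by the number of members per bin, the differences were -12.0 percentage points for H3K27ac, -22.4 for H3K4me1 and -31.9 for POLIIS2P. Without bins they were -24.2, -26.6 and -35.1, so the H3K27ac difference shrank most when the control score was matched.

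**Figure D2:**
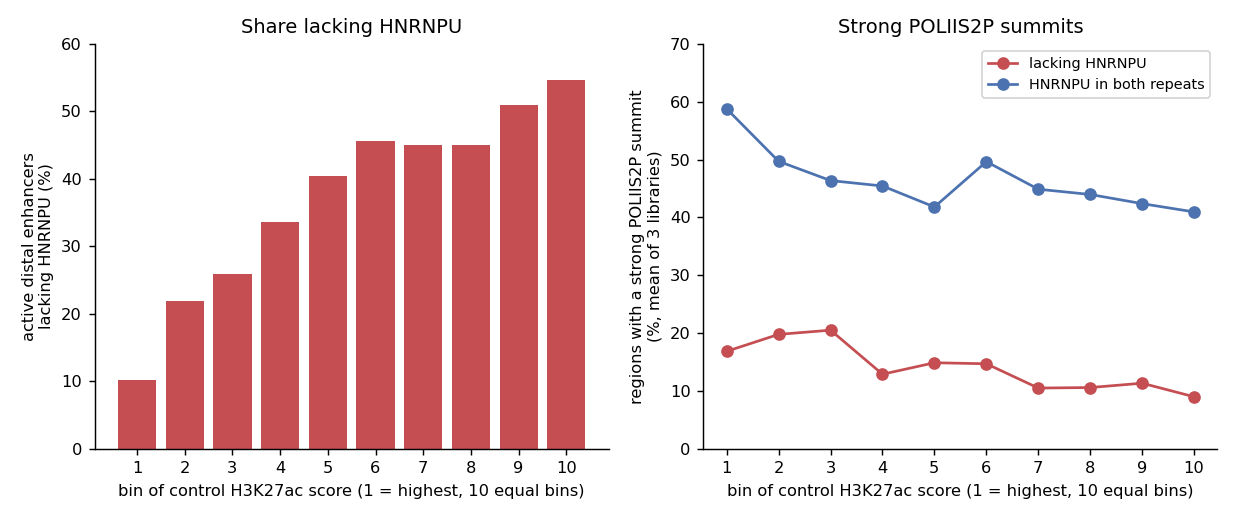
The left panel shows the percentage of active distal enhancers lacking HNRNPU in each of 10 equal bins of the control H3K27ac score, and the right panel the percentage with a strong POLIIS2P summit (mean of 3 libraries) for enhancers lacking HNRNPU and for those bearing it in both repeats. The share lacking HNRNPU goes from 10.2% to 54.7%, and the POLIIS2P lines stay apart in every bin.

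Of the members, 2219 (69.6%) lay inside a protein-coding gene, against 56.7% of HNRNPU-bearing enhancers. The other 968 (30.4%, 95% Wilson interval 28.8% to 32.0%, counting error only) lay between genes. Counted per region, the longest gene around a member had a median length of 142502 bp, against 116808 bp for HNRNPU-bearing enhancers. A gene that held several members was counted once for each. The median distance from a member to the nearest protein-coding gene end was 32098 bp, against 25268.5 bp. An annotated start of any gene lay within 1000 bp of 118 members (3.89% of those on chromosomes with promoter windows) and of 416 HNRNPU-bearing enhancers (13.7%). Among active gene ends selected in the same way, 174 of 2641 (6.59%) lacked HNRNPU.

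POLIIS2P summits were more frequent at members inside genes. A deposited POLIIS2P summit was present at 57.7% ± 1.53 (SD, n = 3) of members inside genes and 20.7% ± 0.473 of members between genes. The difference was 37.1 percentage points and lay between 35.8 and 37.7 in the 3 libraries (exact sign-flip p = 0.25, adjusted over 6 tests 0.3). Strong POLIIS2P summits followed the same order, at 16.2% and 5.79%. HNRNPU-bearing enhancers had more of them in both places, at 61.8% in genes and 30.3% between genes. H3K27ac in shHNRNPU cells was strong at 49.1% of members in genes and 40.9% between genes, higher in genes in 4 of 4 libraries (exact sign-flip p = 0.125, adjusted 0.25). H3K4me1 had the opposite order, at 26.2% in genes and 29.0% between genes (exact sign-flip p = 0.125, adjusted 0.25), while at HNRNPU-bearing enhancers it was 57.4% and 48.8%.

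**Figure D3:**
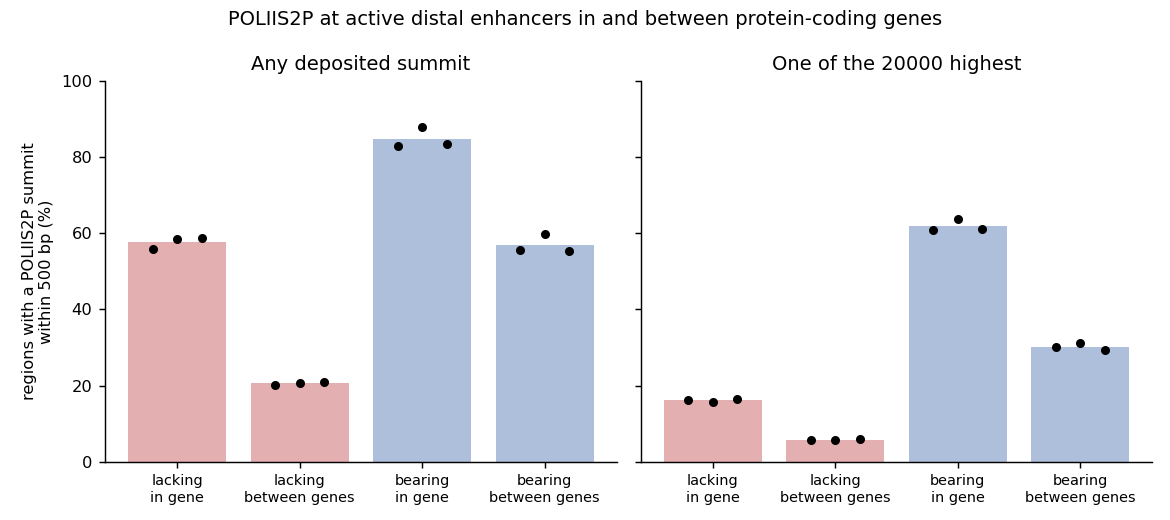
Bars are the mean percentage of regions with a POLIIS2P summit within 500 bp, any deposited summit on the left and one of the 20000 highest on the right, and points are the 3 libraries. Among enhancers lacking HNRNPU, 57.7% in genes and 20.7% between genes had a deposited summit, and both values are below those of the HNRNPU-bearing enhancers in the same location.

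Most members lay more than 5000 bp from the nearest HNRNPU summit, where a distance over 500 bp is set by the rule. A missing summit does not show that the protein was absent. Of the 8536 active distal enhancers, 2153 had a summit in a single repeat only. The median distance to the nearest HNRNPU summit was 13582 bp (quartiles 6382.5 and 30047.5) and the largest 727713 bp. The nearest summit was at up to 1000 bp for 131 members (4.11%), at 1000 to 5000 bp for 460, at 5000 to 50000 bp for 2158 (67.7%) and beyond for 438. The series-wide HNRNPU intervals, which are 400 bp long, came within 500 bp of 40 members (1.26%). Just inside the HNRNPU limit lay a member near ABCC2 at 508 bp, and just outside it an enhancer near RBFOX3 at 497 bp. At the other limits, a member near ZFPM1 had its replicate 2 summit at 249 bp, a member near SHANK2 an H3K4me1 summit at 500 bp and a member near KMT5C a gene end at 1001 bp. A gene end 991 bp away put an enhancer near TMEM64 outside. The weakest member ranked 19996, with the same score of 6.16 as the first summit left out.

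**Figure D4:**
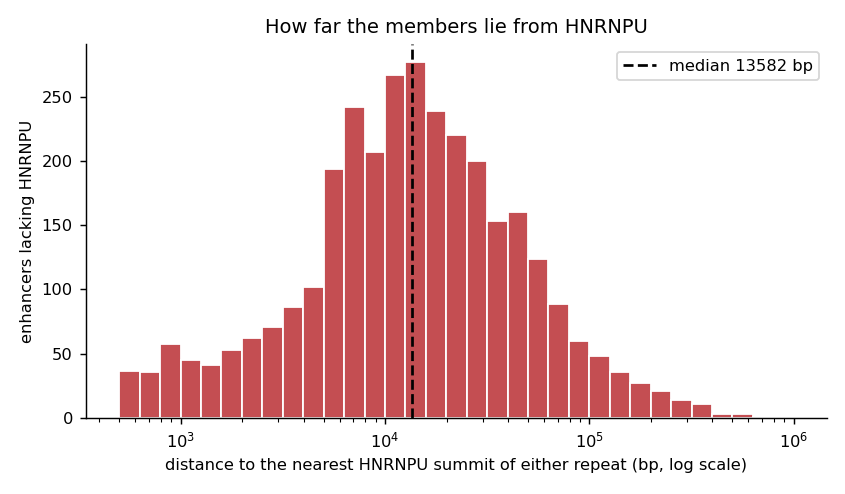
The histogram counts enhancers lacking HNRNPU by the distance to the nearest HNRNPU summit of either repeat, in bp on a log scale that begins at the 500 bp limit of the rule. The dashed line is the median of 13582 bp, and most enhancers lie between 5000 and 50000 bp.

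Members were scattered over the genome, and so were HNRNPU-bearing enhancers. Chained at 12000 bp the members formed 3050 groups, of which 2921 were single members and 8 held 3. HNRNPU-bearing enhancers formed 3093 groups, of which 2997 were single. Groups of more than 1 held 8.35% of members and 6.23% of HNRNPU-bearing enhancers. Of the members, 184 (5.77%) lay within 12000 bp of an HNRNPU-bearing enhancer. The share of active distal enhancers lacking HNRNPU ranged from 32.8% on chromosome 3 to 45.7% on chromosome 18. The densest group spanned 6299 bp inside SNRPN on chromosome 15, an imprinted gene whose product takes part in RNA splicing. Its member at 24856561, 10 bp from an annotated start, was at H3K27ac percentiles 87.6 and 94.1 in the shLUC lists, 93.5 and 90.5 in shHNRNPU#1 and 97.7 and 91.0 in shHNRNPU#2. The next, at 24859091, was at 94.7 and 93.5 in shLUC and 88.8 to 97.1 in shHNRNPU, and the last, at 24862860, was missing from 1 shHNRNPU#1 list. The other dense groups were in PLCD3, a phospholipase C gene, near ACBD4 on chromosome 17 (6543 bp), and at D2HGDH, a mitochondrial dehydrogenase gene, on chromosome 2 (6827 bp). At D2HGDH the members had few strong summits in shHNRNPU cells, in 2, 0 and 0 of the 4 H3K27ac lists. In shLUC replicate 2 they ranked 29196, 11535 and 37145, so the first and last were not strong there either.

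In all, 2386 of 19122 protein-coding genes (12.5%) were the nearest gene of a member, and 554 had more than 1. The gene with the most was MAD1L1, which encodes a spindle checkpoint protein. All 8 of its members lay inside the gene on chromosome 7, no HNRNPU-bearing enhancer had MAD1L1 as its nearest gene, and 6 of the 8 had H3K27ac summits in all 4 shHNRNPU lists. SIPA1L3 had 7. RERE, which encodes a transcriptional corepressor, VAV2, a guanine nucleotide exchange factor gene, ZNF423, a zinc finger transcription factor gene, and TSNARE1 had 6. PXDN, the peroxidasin gene, had 5, the first in genome order of the genes with 5. At SIPA1L3 all 7 members lay inside the gene and 2 had H3K27ac in all 4 shHNRNPU lists. At VAV2 all 6 lay inside the gene, 3 had H3K27ac in all 4 lists and 1 had strong POLIIS2P in all 3. At PXDN none of the 5 had H3K27ac in all 4 lists, and 4 had POLIIS2P in all 3. At RERE all 6 had POLIIS2P in all 3 lists, and at TSNARE1 0 did. Over the 8 genes with the most members, 24 of 51 members had H3K27ac in all 4 lists, against 41.7% of all starting summits. POLIIS2P was present in all 3 lists at 23 of the 51 (against 46.8%) and strong in all 3 at 1 (against 23.9%). The counts at single genes are description only. VAV2 and ZNF423, like MAD1L1, were the nearest gene of no HNRNPU-bearing enhancer. This counts only enhancers with HNRNPU in both repeats. The closest HNRNPU summit to a member lay at 1924 bp for VAV2, 1071 bp for ZNF423 and 8733 bp for MAD1L1.

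Members near genes of pluripotent cells were listed by gene. Of 19 pluripotency genes, 4 were the nearest gene of a member (21.1%, against 12.5% of all protein-coding genes) and 7 of an HNRNPU-bearing enhancer (36.8%, against 13.4%). The member 5093 bp from SOX2, a core pluripotency factor, lay at H3K27ac percentiles 73.6 and 83.4 in shLUC, 61.2 and 85.2 in shHNRNPU#1 and 79.4 and 68.1 in shHNRNPU#2. The member inside NANOG, another core factor, was at 70.9 and 81.0 in shLUC and between 86.5 and 92.5 in the 4 shHNRNPU lists, so the conditions did not overlap. The member inside LIN28B, which encodes an RNA-binding protein that blocks let-7, lay 1156 bp from HNRNPU. It was at 95.2 and 96.6 in shLUC, missing from both shHNRNPU#1 lists and at 98.9 and 99.4 in shHNRNPU#2. PODXL, a surface protein gene, had 3 members, of which 1 was missing from all 4 shHNRNPU lists. At LIN28B the shHNRNPU lists thus differed between the shRNAs.

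Of 17 genes of the primed and formative states, 6 had members (35.3%, against 12.5% of all protein-coding genes) and 7 had HNRNPU-bearing enhancers (41.2%, against 13.4%). POU3F1, a POU transcription factor gene, had 3 members and no HNRNPU-bearing enhancer. TCF7L1, a Wnt pathway repressor gene, had 2, and the other 4, among them THY1 and ZIC2, had 1 each. The POU3F1 members lay 27088, 144170 and 223846 bp from its nearest end, and the THY1 member 87552 bp. Of 24 signalling genes 5 had members (20.8%) and 8 had HNRNPU-bearing enhancers (33.3%), with 3 members at the FGF receptor gene FGFR1 and 1 each at 4 others, among them LEFTY1, FGF2 and SPRY4. The FGFR1 member at chromosome 8, position 38439357, was at H3K27ac percentiles 92.7 and 96.8 in shLUC and 96.0 to 99.2 in shHNRNPU, with POLIIS2P at 90.4 to 96.4. The FGF2 member was at 88.1 and 95.8 in shLUC and 88.5 to 96.7 in shHNRNPU, with no POLIIS2P summit. LEFTY1, a Nodal antagonist gene, had a member at 94.8 and 94.1 in shLUC, 22.5 and 46.5 in shHNRNPU#1 and 94.1 and 87.7 in shHNRNPU#2. Here the shHNRNPU#1 lists alone were low. Of the remaining lists, members were nearest to 1 of 14 naive genes (KLF4), 0 of 14 mesendoderm genes, 1 of 14 neural genes (DLX2), 2 of 14 nuclear architecture genes (NUMA1 and SAFB2), 3 of 80 ribosomal protein genes and 9 of 240 zinc finger genes of chromosome 19. As shares these are 7.14%, 0%, 7.14%, 14.3%, 3.75% and 3.75%, beside the 12.5% of all protein-coding genes. HNRNPU-bearing enhancers were nearest to 3, 1, 4, 3, 7 and 26 genes of these lists. The KLF4 member lay 185117 bp from the nearest end of that gene. Whether members act on their nearest gene was not tested.

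The 10 members with the highest control H3K27ac lay mostly far from genes. STPG2 was the nearest gene of the first, at chromosome 4, position 96736751, although 704498 bp away. This region was at H3K27ac percentiles 99.9 and 99.7 in shLUC and 99.8 to 99.9 in the 4 shHNRNPU lists, had H3K4me1 summits in all 6 lists and no POLIIS2P summit. The region nearest to ANXA10, an annexin gene, 195255 bp away, was at 99.7 and 99.8 in shLUC and at 99.9 in all 4 shHNRNPU lists. The region near ACTBL2, an actin-like gene, was at 99.1 and 99.8 and then 99.9 throughout, and that near BUB1B, a spindle checkpoint kinase gene, at 99.6 and 99.5 and then 99.7 to 99.9. Lower values were seen in CCSER1, at 99.3 and 99.4 in shLUC and 88.0 to 99.3 in shHNRNPU, and near PCDH15, a cadherin gene of sensory hair cells, where 1 shHNRNPU#1 list was at 92.3. VRK2 and EDIL3, a kinase and an extracellular matrix gene, were the nearest genes of further members, the former missing from 1 shHNRNPU#1 list. In PLCD3 the member near ACBD4 was between 99.0 and 99.5 in shHNRNPU cells. The member near SPDYE17 lies by a gene of a multicopy family, where reads may be shared between copies, and its values are uncertain. No POLIIS2P summit was found at 7 of the 10.

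Changes between conditions were examined in the 1292 members that had H3K27ac summits in all 6 lists, using the percentile of each summit within its own list. The percentile was lower in all 4 shHNRNPU lists than in both shLUC lists at 140 members (10.8%, against 14.2% of the 7964 starting summits in all 6 lists) and higher at 64 (4.95%, against 2.71%). With ranks, which weigh list length differently, 82 members were lower (6.35%, against 10.1%) and 93 higher (7.20%, against 5.25%), so the balance of the directions turned with the scale. The control values entered the choice of members and percentiles are set by the length of each list, so no test was made.

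The largest non-overlapping fall in percentile was 6320 bp from ZNF783, a zinc finger gene, where the member was at 91.2 and 80.5 in shLUC, 67.4 and 24.8 in shHNRNPU#1 and 20.5 and 16.3 in shHNRNPU#2. Its ranks overlapped, at 5460 and 17465 in shLUC and 16654 to 70423 in shHNRNPU. The member in DLC1, a tumour suppressor gene, was at 82.9 and 92.7 in shLUC, 56.5 and 0.304 in shHNRNPU#1 and 34.6 and 56.5 in shHNRNPU#2. The member in TCF7L1 was at 82.6 and 89.3 in shLUC and at 8.04, 40.5, 62.1 and 48.4 in shHNRNPU. Members near VPS13C, a lipid transfer gene, and near RNF112 were also lower without overlap in percentile. Near VPS13C the shLUC libraries differed by 27.6 percentiles and the ranks overlapped (10707 and 40308 in shLUC, 29221 to 74014 in shHNRNPU), whereas the ranks in DLC1, in TCF7L1 and near RNF112 did not. Except near VPS13C the shHNRNPU lists were widely spread, while at all 5 H3K4me1 summits were found in at least 3 of 4 shHNRNPU lists.

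The largest rise in percentile was inside TIAM1, a Rac exchange factor gene, on chromosome 21, position 31554759. It was at 69.9 and 59.6 in shLUC, 96.8 and 97.8 in shHNRNPU#1 and 95.8 and 92.5 in shHNRNPU#2, and its ranks were 18551 and 36218 in shLUC and 889 to 6334 in shHNRNPU. Here the 4 shHNRNPU values lay close together and far above shLUC on both scales. The member in PPHLN1, which encodes a subunit of the HUSH silencing complex, was at 68.9 and 31.9 in shLUC and 73.2 to 86.6 in shHNRNPU. DLGAP1, a synaptic scaffold gene, ETNK1, an ethanolamine kinase gene, and PDE4A, a cyclic AMP phosphodiesterase gene, held the other 3. At PPHLN1, DLGAP1, ETNK1 and PDE4A the shLUC libraries differed from each other by 25.2 to 37.0 percentiles, and the ranks of shHNRNPU and shLUC overlapped at all 4 of these.

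**Figure D5:**
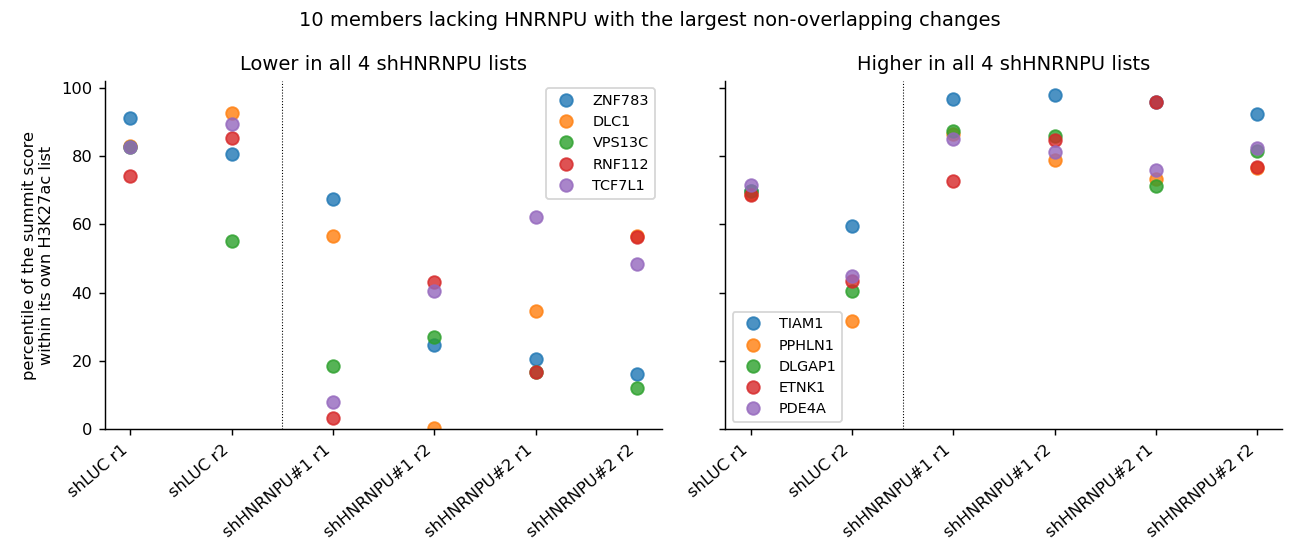
Points are the percentile of the H3K27ac summit score within its own list for the 5 members with the largest non-overlapping fall (left) and rise (right), by library, with shLUC left of the dotted line. The TIAM1 member is at 92.5 to 97.8 in all 4 shHNRNPU lists, against 59.6 and 69.9 in shLUC.

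Of the 120 members with no H3K27ac summit in any shHNRNPU list, the 5 with the highest control percentiles were named. They lay at 2 sites nearest to GOT2, a mitochondrial aminotransferase gene, in CBR4 near PALLD, in NBAS and near VIP, a neuropeptide gene. The GOT2 sites were 435956 and 1242645 bp from the nearest end of that gene. The GOT2 site at chromosome 16, position 59170272, was at 91.7 and 91.4 in shLUC, and its H3K4me1 summits were at 94.0 to 98.5 in the 4 shHNRNPU lists. The NBAS site, at 88.3 and 89.3 in shLUC, had H3K4me1 in 3 of 4 lists. The VIP site, at 81.7 and 92.5 in shLUC, had H3K4me1 in 1 of 4. At all 5 sites H3K4me1 was called in at least 1 shHNRNPU list.

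Members with the highest POLIIS2P lay within 5000 bp of a gene end. The highest was 1143 bp from the end of FASN, the fatty acid synthase gene, at POLIIS2P percentiles 99.7 in shHNRNPU#1 and 99.8 and 99.7 in shLUC, 21433 bp from HNRNPU. The member in ZNF276 near FANCA, a DNA repair gene, was at 99.3, 98.6 and 99.1. ANAPC7, of the anaphase-promoting complex, and MRPS7, of the mitochondrial ribosome, were nearest to the other members. The FANCA member was at H3K27ac percentiles 93.9 and 96.3 in shLUC and 91.9 to 97.3 in shHNRNPU, whereas the member near MRPS7 was missing from 2 shHNRNPU lists.

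The 2 shRNAs and the control were compared last. The strong share at members was 3.73 percentage points higher with shHNRNPU#2 than with shHNRNPU#1 for H3K27ac (exact permutation p = 0.333, the smallest that 2 against 2 libraries allow, adjusted 0.417) and 1.21 higher for H3K4me1 (exact permutation p = 0.667, adjusted 0.667). With the 10000 highest summits the H3K27ac difference turned to -0.816. With all deposited summits, where the list lengths of the shRNAs differ, it was 18.95 for H3K27ac and 4.99 for H3K4me1. From shLUC to shHNRNPU the H3K27ac share fell by 29.9 percentage points at members and by 21.4 at HNRNPU-bearing enhancers, a difference of -8.51. These values hold shLUC replicate 1, in which both classes are at 100% by the rule. Against shLUC replicate 2 alone the share fell by 6.51 at members and by 13.7 at HNRNPU-bearing enhancers, a difference of 7.20 with the opposite sign. Replicate 2 also entered the rule, which required a summit of it within 250 bp, so both falls are favoured by the choice. No direction for the members relative to HNRNPU-bearing enhancers can therefore be given.

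The rule was also started from each shRNA in place of shLUC, as a description. Of 2365 regions lacking HNRNPU chosen in shHNRNPU#1, 73.4% had a strong summit in the other shHNRNPU#1 repeat and 49.2% and 49.9% in the shLUC libraries. Of 3765 chosen in shHNRNPU#2, 58.2% had one in the other repeat and 41.8% and 44.3% in shLUC. The members, chosen in shLUC, were at 53.1% in the other shLUC repeat and 43.4% to 49.8% in shHNRNPU. Whichever condition chose the regions, the share was highest in the other repeat of that condition. The rule required a summit of that repeat within 250 bp. This order is thus favoured by the choice, and no conclusion on the knockdown is drawn from it.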

How the data were processed

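CUT&Tag summit lists of 17 H1 libraries were analysed. Per the submitters' processing notes, cutadapt, Bowtie2, SAMtools, MACS2 and deepTools were used with build hg38. Versions, peak thresholds and control libraries are not given in the sources used here. The authors deposited 1 list per library, and its score was read as the −log10 of a p-value or q-value because their layout is that of MACS2 summits and the lowest values are 2.00 for the histone marks and 1.30 for HNRNPU and POLIIS2P. The deposited series-wide HNRNPU list has a score of 0 throughout and only its positions were used. Repeats were taken as called separately, and the labels do not say whether they came from separate cultures, so p-values measure the spread between these libraries, which may be technical.

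The members and gene lists were chosen with earlier results of these data known. Summits were ranked within each list on chromosomes 1 to 22, which makes lists of unequal length comparable but not libraries of unequal quality. Matching windows were 250 bp for H3K27ac and 500 bp otherwise. Gene ends and starts came from RefSeq tables for GRCh38.p14, which is the hg38 assembly. These hold no exons, so exons, introns and UTRs were not told apart. Coordinates are the summit's base counted from 1. Shares of regions were compared within libraries by two-sided exact sign-flip tests over libraries and between shRNAs by two-sided exact permutation tests, with Benjamini-Hochberg adjustment. Python 3.11.15, numpy 2.4.6, pandas 2.3.3 and scipy 1.17.1 were used, and the scripts were tested on simulated data. Regions were named by the nearest protein-coding gene end and any gene around them. Those named were the 10 with the highest control H3K27ac percentile, the 8 genes with the most members, up to 4 genes per list, the 5 largest non-overlapping falls and rises, the 5 highest in POLIIS2P, the 5 absent from all shHNRNPU H3K27ac lists with the highest control, those at each limit of the rule and the 3 densest groups. Some items these rules name are not reported here. Groups of samples follow the titles, with the antibody of the 4 shLUC histone libraries taken from the names in the lists. Alternatives covered the number of summits counted as strong, the windows, the HNRNPU intervals, the exchange of control repeats, the antibody names, the gene ends, the number of starting summits, the control score and each library left out. Same-numbered repeats did not deviate together (correlation 0.002 over 1292 members for H3K27ac and -0.01 over 2617 for H3K4me1), so they were not paired.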

Additional observations from a re-analysis of the deposited data

Results flagged for a closer look

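The strong H3K4me1 share at members was 25.3% in shHNRNPU#1 replicate 1 and 27.6% to 27.7% in the other 3 shHNRNPU libraries. This library was set apart by a gap that made up 0.961 of the spread from the lowest to the highest of the 4. It was 1 of 4 groups of 4 libraries examined, and chance alone sets apart about 1 group in 20. The size of the gap is 2.32 percentage points, and the difference between members and HNRNPU-bearing enhancers was -26.7 percentage points without this library.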

How the results depend on the processing

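The strong shares at members were below those at HNRNPU-bearing enhancers under each alternative run. Aside from leaving out a library, the differences ranged from -27.1 to -11.9 percentage points for H3K27ac, -29.7 to -4.58 for H3K4me1 and -35.1 to -26.2 for POLIIS2P, the smallest with all deposited summits counted. Without 1 library each, they ranged from -25.1 to -23.1, -27.1 to -25.8 and -35.6 to -34.3. Within 10 bins of control score the H3K27ac difference was -12.0, against -24.2 as reported. No setting can pass 0.05, so p-values say nothing about stability. With the 10000 highest summits, the shHNRNPU#2 minus shHNRNPU#1 difference for H3K27ac turned to -0.816. Counting all deposited summits gave 18.95 (H3K4me1 4.99), and antibodies by title gave 10.0 (H3K4me1 5.82). Leaving out a library gave 2.35 to 5.11 for it and 0.05 to 2.37 for H3K4me1. With a replicate block, which pairs the same numbers, the differences were 3.73 (exact sign-flip p = 0.5) and 1.21 (exact sign-flip p = 1), and no call changed. The change from shLUC at members minus that at HNRNPU-bearing enhancers was -11.9 with all deposited summits, 6.54 with the 10000 highest, -16.4 with antibodies by sample title and -1.35 within 10 bins of control score. It was 7.20 with shLUC replicate 2 only, added after seeing the data, and -24.2 to 7.20 without 1 library each. With all deposited summits the shLUC libraries are at 100% in both classes by the rule. The -11.9 is therefore only the difference between the shHNRNPU shares. The POLIIS2P difference between shHNRNPU#1 and shLUC at members was -2.07 with all deposited summits, -0.471 with the 10000 highest, 1.73 with antibodies by title and -0.188 to 0.282 without 1 shLUC library. The number of members was 1614 with antibodies by title, where 33.9% lay between genes, and 1333 from the 10000 highest starting summits. Ranking over all chromosomes gave 3151 members, and leaving out annotated starts gave 3069, both added after seeing the data. The cause of these changes was not tested. Unknown depth and 3 or 4 libraries per test limit every comparison.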
